A study of Mus musculus with 24 samples.

Results

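The genes described here are 10 markers of brain endothelium and the blood-brain barrier, chosen by symbol from the gene table of a mouse RNA-seq series: Cldn5, Ocln and Tjp1 of the tight junctions, Pecam1 and Cdh5 of the endothelial contacts, the VEGF receptors Kdr and Flt1, and the transporters Slc2a1, Mfsd2a and Abcb1a. They are 10 of 48709 genes counted. Each symbol matched 1 gene row. RNA was sequenced from cerebral cortex and blood of C57BL/6J neonates (the study's methods name C57BL/6NJ) whose dams had breathed either filtered air (control) or nPM, nano-sized urban particulate matter, for 5 h on 3 days each week from gestational day 2 until birth. The labels give the age as 3 to 5 days, and the methods give it as day 5. The dose is 300 mg/m3 in the labels, whereas the methods give it in μg/m3. Each tissue had 12 libraries, 3 for each combination of exposure and sex, and no genotype or transgene was involved. Pups of the same exposure and sex came from different litters per the methods. The labels do not say which cortex and blood libraries came from 1 pup, so the tissues were not paired.

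In the brain, capillary endothelial cells are sealed to each other by tight junctions and carry few vesicles, so that most molecules pass only through dedicated carriers. These properties are induced during embryonic life by Wnt ligands from neural cells and are kept up by pericytes and astrocytes. VEGF, acting through its receptors, drives the ingrowth of the vessels. Because the libraries are bulk tissue, fewer endothelial cells and less RNA per cell cannot be told apart in any of the values given here.

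The cortex libraries held 22301409 to 33804371 counts on genes and the blood libraries 13595647 to 21895536. The RNA integrity number (RIN) lay between 9.4 and 9.9 for cortex RNA, and for blood RNA between 7.5 and 9.3. All 10 genes had counts in every cortex library. A pair of libraries stood apart. The cortex library of control male 1 (labelled V14) was low in vascular and choroid plexus genes. The main results for the 10 genes are therefore given with and without it, for Cldn5 and the transporters as mean levels. Gene list counts and medians for both sexes together include it. The blood library of control female 2 (labelled V2) held the epidermal keratin Krt10 at 3161 CPM (counts scaled to the library total), whereas no other blood library exceeded 3.35 CPM. It was left out of the blood comparison, because without it the average expression of the study's own blood table is obtained.

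Promoter sequences of 3 genes are shown, because Kdr, Flt1 and Cldn5 were, like the other 7 genes, at their lowest in the same cortex library, control male 1. The windows run from 250 bases before to 50 bases after the start of the gene in RefSeq (build GRCm38.p6), on the strand of the gene. Capitals mark the ETS-type motif GGAAGT (reverse complement ACTTCC) and the GC box GGGCGG (reverse complement CCGCCC), searched on both strands; the motifs share no bases here.
Kdr, chr5:75978406-75978705, minus strand: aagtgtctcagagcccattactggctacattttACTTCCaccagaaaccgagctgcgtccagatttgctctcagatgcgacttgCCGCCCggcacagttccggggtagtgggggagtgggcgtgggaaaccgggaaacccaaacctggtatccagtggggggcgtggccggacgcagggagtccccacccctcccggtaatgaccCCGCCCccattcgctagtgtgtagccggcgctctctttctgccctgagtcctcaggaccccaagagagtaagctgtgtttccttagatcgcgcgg
Flt1, chr5:147725962-147726261, minus strand: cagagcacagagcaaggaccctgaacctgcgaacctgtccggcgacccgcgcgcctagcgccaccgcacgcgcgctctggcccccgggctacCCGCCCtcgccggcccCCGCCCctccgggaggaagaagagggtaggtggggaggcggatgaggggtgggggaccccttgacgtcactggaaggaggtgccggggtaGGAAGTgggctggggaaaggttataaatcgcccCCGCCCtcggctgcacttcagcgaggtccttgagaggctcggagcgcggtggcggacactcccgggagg
Cldn5, chr16:18776597-18776896, plus strand: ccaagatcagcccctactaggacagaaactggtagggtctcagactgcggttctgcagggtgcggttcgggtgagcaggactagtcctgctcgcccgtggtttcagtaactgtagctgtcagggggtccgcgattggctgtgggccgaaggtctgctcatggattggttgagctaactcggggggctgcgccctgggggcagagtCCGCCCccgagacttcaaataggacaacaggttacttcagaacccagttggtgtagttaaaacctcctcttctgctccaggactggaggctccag
Both VEGF receptor windows held 1 ETS-type motif each, with 2 GC boxes in Kdr and 3 in Flt1, and the Cldn5 window held 1 GC box and no ETS-type motif. Of the 8 genes with a RefSeq entry, 2 had the ETS-type motif and 6 the GC box; among 32851 mouse promoter windows of this length the shares were 23.8% and 35.7%. The G and C content was 60.7% in Kdr, 70.7% in Flt1 and 58.3% in Cldn5.

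Scaled by exon length as well as library total (RPKM), the tight junction gene Cldn5 had the highest level in cortex, at 25.3 ± 2.64 RPKM (SD, n = 12). Tjp1 followed at 13.9 ± 0.898 RPKM, then the lipid carrier Mfsd2a at 10.5 ± 0.763 RPKM and the glucose carrier Slc2a1 at 6.85 ± 0.512 RPKM. The ranges of these 4 genes did not overlap with one another, nor did that of Slc2a1 with the next, Kdr, at 4.40 ± 0.485 RPKM. Below them, Cdh5 (3.40 ± 0.471 RPKM) and Pecam1 (3.26 ± 0.293 RPKM) differed by less than their SD, as did Abcb1a (2.62 ± 0.309 RPKM) and Ocln (2.56 ± 0.368 RPKM). Flt1 was lowest at 1.63 ± 0.188 RPKM. Cldn5, on chr16:18776847-18778260, is also the most compact of the 10, lying on 1414 bases, whereas Tjp1 spans 231617 bases of chromosome 7.

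**Figure D1:**
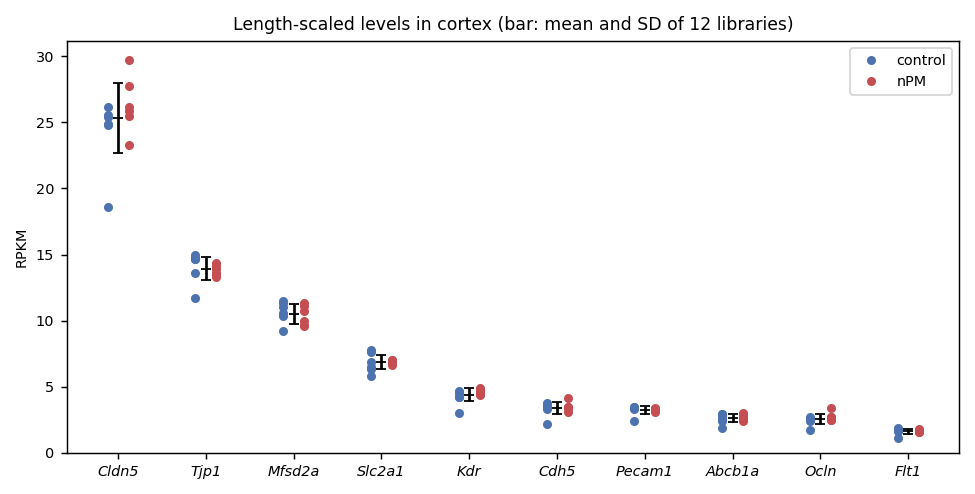
Length-scaled level (RPKM, vertical axis) of each of the 10 genes in the 12 cortex libraries, blue for control and red for nPM, with the mean and SD of all 12 in black. Cldn5 at a mean of 25.3 RPKM and Tjp1 at 13.9 RPKM lie above the others, and the lowest blue point of each gene is the same library, control male 1.

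The main comparison asked whether cortical expression differed between nPM and control neonates, with both sexes together. No difference was detected for any of the 10 barrier genes. In edgeR's quasi-likelihood test with sex and RIN as covariates, 0 of 10 had an unadjusted p under 0.005 (the cutoff of the study) and 0 had an adjusted p under 0.05, against 0.614% and 0.0144% of the 20857 genes tested. The count at an unadjusted p under 0.05 was also 0, against 5.67% of all genes, and limma voom and DESeq2 gave no adjusted p under 0.05 either. The nPM estimate was higher for 8 genes and lower for 2, with a median log2 fold change of 0.04 (median over all genes, −0.0024). Without control male 1 it was higher for 3 and lower for 7, with a median of −0.03.

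Claudin-5, encoded by Cldn5, is the main sealing protein of brain endothelial tight junctions. Its control libraries lay between 27.1 and 37.0 CPM scaled by TMM (trimmed mean of M-values), with a median of 35.6, and its nPM libraries between 33.2 and 41.8 with a median of 36.7. The groups overlapped, and only control male 1 lay under the lowest nPM library. The log2 fold change was 0.11 (SE 0.075, 95% interval −0.05 to 0.27, edgeR adjusted p = 0.885), a fold of 0.966 to 1.21 by the interval. Without control male 1 the Cldn5 means were 37.23 in nPM and 35.81 in control. For occludin, Ocln, a membrane protein of the same junctions, the controls ran from 7.40 to 11.3 (median 10.6) and the nPM libraries from 10.5 to 14.1 (median 10.97). Its log2 fold change of 0.17 was the largest of the 10, with an SE of 0.106 and an adjusted p of 0.884, and it was 0.08 without control male 1. Tjp1 encodes ZO-1, a scaffold under the tight junctions of endothelium and of many epithelia. It had controls of 94.3 to 117 (median 114) and nPM libraries of 103 to 112 (median 107.5), all in TMM-scaled CPM. The log2 fold change was −0.04 (SE 0.050, edgeR adjusted p = 0.931). Without control male 1 it was −0.08 (SE 0.042, edgeR adjusted p = 0.914), with means of 107.5 in nPM and 113.5 in control. By the exact two-sided permutation test on the CPM, p was 0.509 with all 12 libraries and 0.0325 with these 11.

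Pecam1 (CD31), an adhesion molecule of endothelium that platelets and leukocytes also carry, ranged from 15.2 to 21.7 TMM-scaled CPM in controls (median 20.98) and from 19.4 to 20.95 in nPM libraries (median 20.7). Apart from control male 1 the 11 libraries lay within 19.4 to 21.7, so this was the steadiest of the 10 genes relative to its level. The log2 fold change was 0.03 (SE 0.076, edgeR adjusted p = 0.969), and −0.04 without control male 1. Cdh5, VE-cadherin of the adherens junctions, ranged from 9.26 to 15.9 in controls (median 14.6) and from 13.2 to 17.2 in nPM libraries (median 14.4). The fold change was 0.07 on the log2 scale (SE 0.111, 95% interval −0.17 to 0.30), and −0.03 without control male 1. An antisense gene overlaps Cdh5, and 2 overlap Slc2a1. Tjp1 overlaps 3 other annotated genes and Abcb1a 2, including genes on the same strand. Reads from the opposite strand could not be separated because the strand setting of the counting is not given in the sources used here.

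Of the VEGF receptors, Kdr (VEGFR2) transmits the main growth signal to endothelium and Flt1 (VEGFR1) binds VEGF largely as a decoy. Kdr ranged from 27.7 to 42.0 TMM-scaled CPM in controls (median 39.8) and from 39.0 to 43.7 in nPM libraries (median 41.7). Its log2 fold change of 0.12 (SE 0.078, 95% interval −0.04 to 0.29, edgeR adjusted p = 0.884) became 0.04 (SE 0.048) without control male 1. Flt1 ranged from 15.4 to 25.5 in controls (median 22.8) and from 20.8 to 24.03 in nPM libraries (median 21.9). The controls thus held both the lowest and the highest Flt1 value, and the log2 fold change was 0.01 (SE 0.091), or −0.08 (SE 0.059) without control male 1.

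The transporters had estimates close to 0. GLUT1, encoded by Slc2a1, takes glucose across the barrier; its controls ran from 21.1 to 27.2 TMM-scaled CPM (median 23.4) and its nPM libraries from 23.3 to 24.8 (median 24.2). The nPM libraries all lay inside the control range, and the log2 fold change was 0.00 (SE 0.063, 95% interval −0.13 to 0.14). Mfsd2a, which carries lysophosphatidylcholine with omega-3 fatty acids into brain and limits vesicle transport, ranged from 21.3 to 26.3 in controls (median 24.1) and from 21.5 to 25.4 in nPM libraries (median 23.4), with a log2 fold change of −0.04 (SE 0.061). Abcb1a, the P-glycoprotein pump that expels drugs, ranged from 10.6 to 16.4 in controls (median 14.6) and from 13.2 to 16.2 in nPM libraries (median 14.7), with a log2 fold change of 0.04 (SE 0.097). Groups overlapped for all 10 genes, where 0.197% of all genes had groups that did not. By the exact permutation test over 924 arrangements (smallest p possible 0.00216), the lowest p was 0.113, for Kdr. With 12 libraries the 95% intervals still allowed a change of up to 1.32-fold for Ocln and 1.23-fold for Cdh5. Without control male 1 the mean TMM-scaled CPM was 24.07 in nPM and 24.56 in control for Slc2a1. It was 23.37 and 24.61 for Mfsd2a, and 14.57 and 14.81 for Abcb1a.

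**Figure D2:**
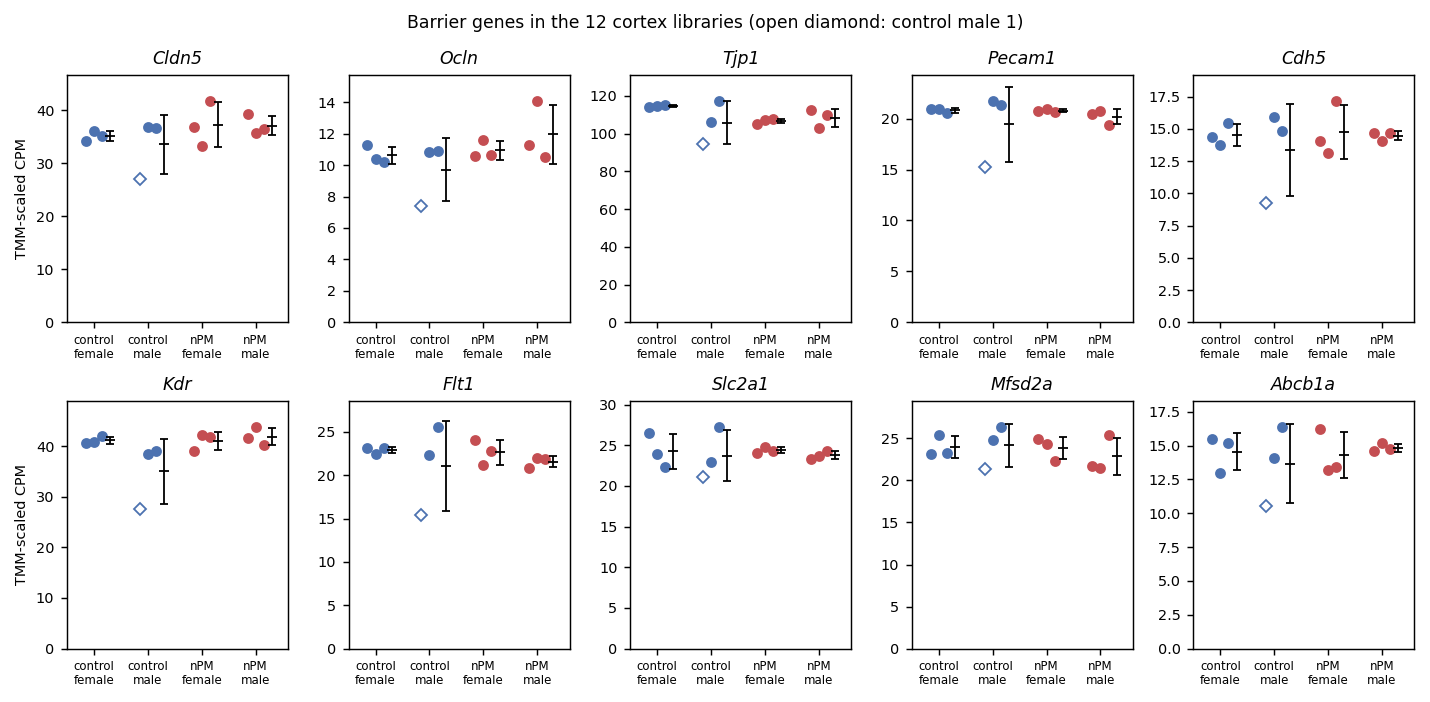
TMM-scaled CPM (vertical axes, from 0) of the 10 genes in each cortex library by exposure and sex, blue for control and red for nPM; black bars give the group mean and SD of 3 libraries. The open diamond, control male 1, is the lowest of the 12 libraries in every panel, for example at 9.26 CPM for Cdh5 where the others lie between 13.2 and 17.2.

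Control male 1 was the lowest of the 12 cortex libraries for 10 of 10 genes, although it was the lowest for 10.5% of the 20857 genes tested. Relative to the mean of the other 11 libraries it was lower by 37.2% for Cdh5, 33.5% for Ocln, 32.3% for Kdr and 32.1% for Flt1, by 26.0% to 28.0% for Cldn5, Pecam1 and Abcb1a, and by 10.9% to 14.5% for Mfsd2a, Slc2a1 and Tjp1. Its depth of 28202344 counts and RIN of 9.5 were inside the range of the others. Other gene lists moved with it to differing extents. Of 16 further endothelial genes 13 were lowest there (median log2 ratio −0.54), as were 6 of 7 basement membrane genes (−0.41), 6 of 8 meningeal fibroblast markers (−0.60) and 8 of 8 choroid plexus markers (−2.41). The choroid plexus gene Ttr, which encodes transthyretin, had 26.5 CPM there and 225 to 487 in the other 11 libraries. The shift was smaller in further junction genes (5 of 12 lowest there, −0.15), transporters (6 of 16, −0.14), VEGF, angiopoietin and Notch genes (5 of 17, −0.13) and astrocyte markers (2 of 7, −0.11). Wnt genes were lowest there for 8 of 16 (−0.27) and genes of leaky or activated endothelium for 2 of 6 (−0.42). Pericyte and smooth muscle markers were lowest there for 4 of 12 (−0.26), erythroid markers for 1 of 8 (−0.77) and neuronal markers for 0 of 10 (0.11). The median over all genes was −0.004. The summed erythroid markers of control male 1, at 308.6 CPM, lay within those of the other libraries on its sequencing lane (252.1 to 461.3). On the other lane the cortex libraries had 635.3 to 701.3 CPM, so the erythroid ratio does not show this library low within its lane. The part of choroid plexus, meninges or vessel content of the tissue piece in the barrier gene values was not tested. All 10 genes stayed below the mean of the other libraries under plain CPM and under the relative log expression (RLE) scaling.

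**Figure D3:**
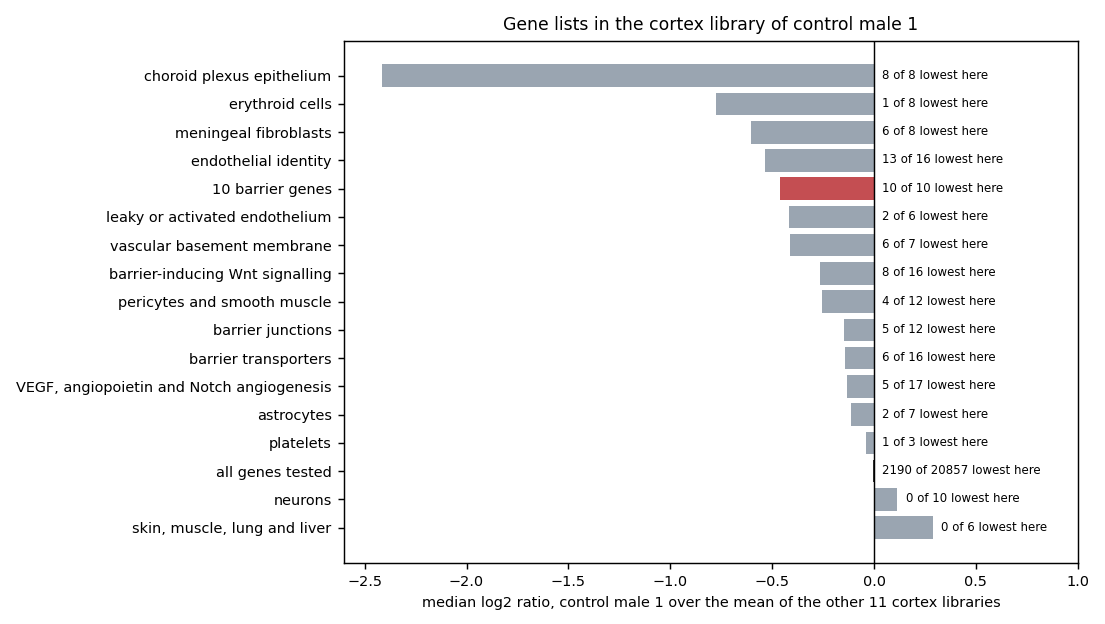
Median log2 ratio of control male 1 over the mean of the other 11 cortex libraries (horizontal axis) for each gene list, with the number of its tested genes that were lowest in that library. The 10 barrier genes (red) sit at −0.46, the choroid plexus list at −2.41 and all genes near 0.

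No barrier gene was called with or without this library. Its removal changed the sign of the estimate for 5 of the 10 genes (Pecam1, Cdh5, Flt1, Slc2a1 and Abcb1a), none of which had been called. The cortex libraries were run on lanes 2 and 3, with 4 nPM and 4 control libraries on the former and 2 of each on the latter. Within lane 2 the difference of mean log2 values was 0.19 for Kdr and 0.25 for Ocln, and it was 0.06 and 0.12 there without control male 1. Within lane 3, which did not hold that library, it was 0.02 for Kdr, 0.00 for Ocln and 0.12 for Cldn5, and the lowest values were −0.16 for Abcb1a (0.16 in lane 2), −0.12 for Flt1 (0.09 in lane 2) and −0.10 for Tjp1 (−0.0006 in lane 2). When the mean level of Cldn5, Pecam1, Cdh5, Kdr and Flt1 was added as a covariate, the other 5 genes had log2 fold changes of 0.11 (Ocln), −0.07 (Tjp1), −0.02 (Slc2a1), −0.06 (Mfsd2a) and −0.02 (Abcb1a), again with no adjusted p under 0.05.

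No difference between male and female cortex was detected in these genes. In the same fit 0 of 10 had an unadjusted p under 0.005 for sex, against 0.518% of all genes, 0 had one under 0.05, against 6.09%, and 0 had an adjusted p under 0.05, against 0.0336%. The estimate was lower in males for 9 and higher for Mfsd2a alone, with a median of −0.06, and without control male 1 it was lower for 6 and higher for 4, with a median of −0.0009.

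The sexes were also fitted apart. In females 0 of 10 genes had an unadjusted p under 0.005 and 0 an adjusted p under 0.05, where 4.02% and 1.11% of 21731 genes had one; 4 estimates were higher and 6 lower. Tjp1 was the one gene with an unadjusted p under 0.05 (15.4% of all genes). Its female controls were at 114.0, 114.6 and 115.3 TMM-scaled CPM and its female nPM libraries at 105.3, 107.2 and 107.7. The groups did not overlap, but 21.1% of all genes had female groups that did not. The log2 fold change was −0.11 (SE 0.044, 95% interval of the fold 0.869 to 0.991, edgeR p = 0.0298, adjusted p = 0.266), and the exact permutation p was 0.1, the smallest that 3 against 3 libraries allow. Both groups were tight, with SDs of 0.651 and 1.27 CPM.

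In males 0 of 10 genes had an unadjusted p under 0.005 and 0 an adjusted p under 0.05, against 0.318% and 0.0% of 21670 genes, and 0 had an unadjusted p under 0.05, against 4.51%. Kdr had male controls at 27.7, 38.4 and 39.1 TMM-scaled CPM and male nPM libraries at 40.3, 41.6 and 43.7. These groups did not overlap either, as was the case for 9.2% of all genes. Its log2 fold change was 0.29 (SE 0.142, edgeR adjusted p = 0.962, exact permutation p = 0.1). Without control male 1 it was 0.07 (SE 0.090). The male values rested on single controls in both directions: the median over the 10 genes was 0.12 with all 6 libraries, −0.08 without control male 1 and 0.36 without control male 3, which was the highest of the 12 libraries for 5 of the genes.

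No difference between the sexes in the effect of nPM was detected. The interaction term had 0 of 10 genes at an unadjusted p under 0.005 (1.35% of all genes), 0 at one under 0.05 (9.68%) and 0 at an adjusted p under 0.05 (0.0% of all genes). Its largest estimate was that of Kdr, 0.28 on the log2 scale (SE 0.1503, edgeR adjusted p = 0.575), which was 0.12 (SE 0.098) without control male 1.

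**Figure D4:**
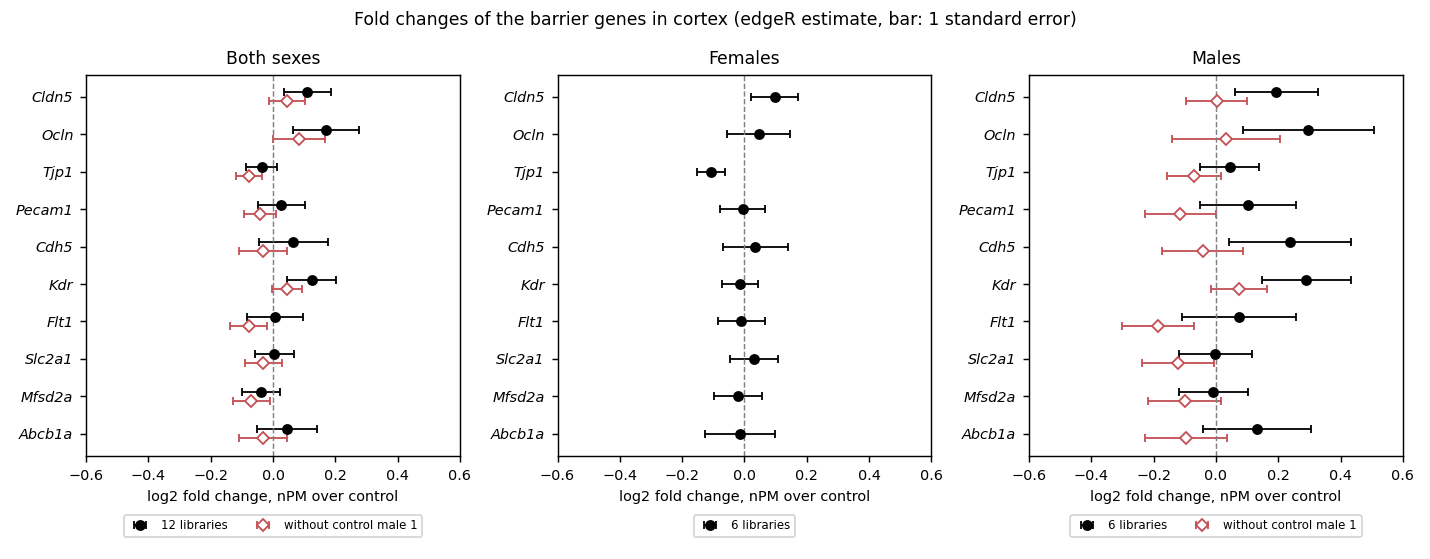
Log2 fold change of nPM over control (horizontal axis) with 1 standard error for the 10 genes in both sexes, females and males, from edgeR. Filled circles use all libraries and open red diamonds leave out control male 1, which lowers the estimate of all 10 genes, for Kdr in males from 0.29 to 0.07.

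Lists of other vascular and barrier genes gave few calls. For both sexes together, edgeR gave none of the genes in these lists an adjusted p under 0.05, against 0.0144% of all genes. DESeq2 gave Slc7a3 and Nrp2 one, where 22 of all 20857 genes had one. Of 16 further endothelial genes 9 were higher and 7 lower (median 0.01), with 0 at an unadjusted p under 0.005. Of 12 further junction genes 8 were higher (median 0.07), of 16 genes of the Wnt signalling that induces the barrier 11 were higher (median 0.06), and neither list had one at that cutoff. The smallest p-values there belonged to the catenin gene Ctnnb1 (log2 fold change 0.09, SE 0.042) and the adhesion molecule gene Jam2 (0.09, SE 0.056), and in the Wnt list to Foxc1 (0.25, SE 0.136) and Tspan12 (0.08, SE 0.048). The medians stood beside −0.0024 for all genes. These list values include control male 1, and list values without it were not taken. That library was below the mean of the others for 16 of 16 endothelial, 11 of 12 junction and 15 of 16 Wnt genes.

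Among 16 further transporters 1 passed the unadjusted cutoff, Slc7a3, a carrier of cationic amino acids such as arginine (chrX:101079210-101086020). Its controls lay between 12.8 and 17.37 TMM-scaled CPM (median 14.8) and its nPM libraries between 17.40 and 19.99 (median 19.2), so that the groups met without overlapping. The log2 fold change was 0.36 (SE 0.068, edgeR adjusted p = 0.286) and stayed at 0.37 without control male 1, which was not low for this gene. DESeq2 gave it an adjusted p of 0.0028. Of the 16 transporters 10 were higher and 6 lower (median 0.03), with Slc7a1 among the lower (−0.05, SE 0.048). Which cells of the bulk cortex the Slc7a3 counts came from was not tested. Among 17 genes of VEGF, angiopoietin and Notch signalling 1 passed, Nrp2, a co-receptor for VEGF-C and semaphorins that neurons express too. Nrp2 had a control range of 43.0 to 78.3 and an nPM range of 65.7 to 97.8 TMM-scaled CPM. The log2 difference was 0.37 (SE 0.087, edgeR adjusted p = 0.493), with overlapping groups. It was 0.30 without control male 1. DESeq2 gave Nrp2 an adjusted p of 0.0295. Nrp2 also passed the unadjusted cutoff for nPM in males alone, at 0.51 (SE 0.131, edgeR adjusted p = 0.962). It passed for sex too, where males were lower by a log2 difference of −0.41 (SE 0.097, edgeR adjusted p = 0.521). For sex the DESeq2 adjusted p was 0.0393, where 26 of 20857 genes were under 0.05.

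The pericyte and smooth muscle list (12 tested) and the basement membrane list (7 tested) had 0 genes past the unadjusted cutoff for both sexes together, as did genes of leaky or activated endothelium (6 tested). In the last list the caveolar gene Cav1 had the smallest p, with a log2 fold change of 0.18 (SE 0.064, edgeR adjusted p = 0.844), followed by Ager (0.48, SE 0.338). Ager was barely counted, at 0.159 to 0.848 TMM-scaled CPM in controls and 0.401 to 0.513 in nPM libraries. Control male 1 was below the mean of the other libraries for 6 of 6 genes of this list. Of 8 meningeal markers Dcn passed, with 14.4 to 27.5 TMM-scaled CPM in controls, 27.4 to 33.8 in nPM libraries and a log2 fold change of 0.62 (SE 0.136, edgeR adjusted p = 0.493). Control male 1, which is among the controls here, was the lowest library for 6 of 8 meningeal and 8 of 8 choroid plexus markers. The choroid plexus list was higher for 8 of 8 (median 0.42), with 0 at the unadjusted cutoff. In females, whose libraries do not include control male 1, it was also higher for 8 of 8 (median 0.25), with 1 at that cutoff, Ttr, at a log2 fold change of 0.32 (SE 0.093, edgeR adjusted p = 0.121). Cldn2 of the same list passed the cutoff for sex, with a male over female log2 difference of −0.92 (SE 0.235, edgeR adjusted p = 0.733), as did the neuronal gene Neurod6 (0.19, SE 0.054, edgeR adjusted p = 0.797); control male 1 is among the males. The astrocyte (7 tested), neuronal (10), erythroid (8), platelet (3) and skin, muscle, lung and liver lists (6) had 0 genes at that cutoff, with medians of 0.02, −0.06, −0.06, 0.16 and 0.07. The astrocyte genes with the smallest p were Slc1a2 (−0.21, SE 0.1204) and Aldoc (−0.10, SE 0.066).

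In females 1 of the 16 genes of the endothelial list had an adjusted p under 0.05, where 1.11% of 21731 genes did (241 genes, 194 of them lower in nPM), and none of the genes in the other lists had one. Ptprb (chr10:116301374-116389538) encodes VE-PTP, the receptor phosphatase of endothelium that acts on VE-cadherin and the angiopoietin receptor Tek. It fell from 31.2 ± 1.24 TMM-scaled CPM in female controls to 23.9 ± 0.670 in female nPM libraries (SD, n = 3 each). The female controls lay between 30.4 and 32.6 and the nPM libraries between 23.3 and 24.6. The log2 fold change was −0.38 (SE 0.070, edgeR adjusted p = 0.0237), and limma voom and DESeq2 gave adjusted p-values of 0.0247 and 0.00489. In females limma voom took 226 and DESeq2 445 of 21731 genes under 0.05. Leaving out 1 library at a time moved the adjusted p to between 0.0321 and 0.128, over 0.05 in 5 of 6 cases, with fold changes of −0.34 to −0.41. In males the 3 controls were at 17.1, 25.2 and 30.7, the first being control male 1, and the nPM libraries at 25.2 to 27.6. The interaction was 0.52 (SE 0.213, edgeR adjusted p = 0.468), so the sexes were not shown to differ. For both sexes together Ptprb had a log2 fold change of −0.13 (SE 0.118), and −0.25 (SE 0.069, edgeR adjusted p = 0.914, unadjusted p under the 0.005 cutoff) without control male 1. Hspg2, the basement membrane proteoglycan perlecan, also had lower values in nPM females, at 9.49 ± 0.548 against 12.3 ± 0.799 (log2 fold change −0.38, edgeR adjusted p = 0.106). The pericyte gene Vtn, which encodes vitronectin, had higher values, at 46.1 ± 4.802 against 40.6 ± 2.69 TMM-scaled CPM (SD, n = 3 each) with overlapping groups (0.22, SE 0.058, edgeR adjusted p = 0.0997). Higher values past the unadjusted cutoff in females were also found for Slc7a3 (0.34, edgeR adjusted p = 0.109) and Dcn (0.64, edgeR adjusted p = 0.0913), besides Ttr.

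To see which genes varied like these, the 10 standardised log2 profiles were averaged over the 12 cortex libraries and compared with 16660 well-counted genes. Among the 10 closest were the junction gene Cgnl1 (Pearson r = 0.934), the Wnt target Apcdd1 (0.931) and Ttr (0.916), followed by Ahnak, Cavin1, Fzd6, Col4a1, Cald1 and Swap70 (0.900 to 0.914). All 10 were lowest in control male 1. Without that library 0 of the 10 stayed among the 10 closest: r fell to 0.354 for Cgnl1, was −0.058 for Ttr, and stayed at 0.852 for Apcdd1, so the likeness of the others rests largely on 1 library. The agreement of the genes with their own average, of which each gene is a part, also fell without that library, but unequally. With 12 libraries r with the average was 0.964 for Flt1, 0.881 for Kdr and 0.526 for Mfsd2a. Without control male 1 it was 0.826, −0.302 and 0.174. It went from 0.722 to 0.639 for Slc2a1, from 0.843 to 0.543 for Abcb1a and from 0.755 to −0.0237 for Ocln. These coefficients describe libraries that share their scaling, and no p is given.

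The blood values stand beside those of cortex. In the control libraries of both tissues (6 of cortex and 5 of blood), every cortex library was above every blood library for 10 of 10 genes, which held for 62.5% of all genes. The pooled level was 191-fold higher in cortex for Cldn5 (exact 95% interval for counting error only, 119 to 328), from 6154 cortex and 17 blood counts. It was 254-fold higher for Tjp1 (187 to 354), 106-fold for Kdr (75.6 to 153), 104-fold for Flt1 (67.3 to 171) and 57.9-fold for Slc2a1 (42.3 to 81.6). The ratio of Cdh5 was 132 (71.6 to 275) and that of Abcb1a 266 (114 to 821), from 10 and 5 blood counts. Mfsd2a and Ocln had 2 counts each in the 5 blood libraries, which gave ratios of 1137 (315 to 9393) and 480 (133 to 3966).

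Pecam1 was the exception in size. Its level was 14.8 to 21.7 CPM in control cortex and 7.32 to 12.8 CPM in control blood, a ratio of 1.97 (1.83 to 2.11). Globin transcripts took 66.3% to 76.8% of the counts of the blood libraries other than V2. When globin and mitochondrial genes were left out of the totals, Pecam1 was lower in cortex, at 16.1 to 23.2 against 32.6 to 49.6 CPM, while the other 9 genes stayed above blood in every library (54.1% of all genes did). Among the 11 blood libraries used, Mfsd2a had 0 counts in 6, Ocln in 7 and Abcb1a in 5, and a count of 0 allows up to 0.137 to 0.221 CPM in these libraries.

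**Figure D5:**
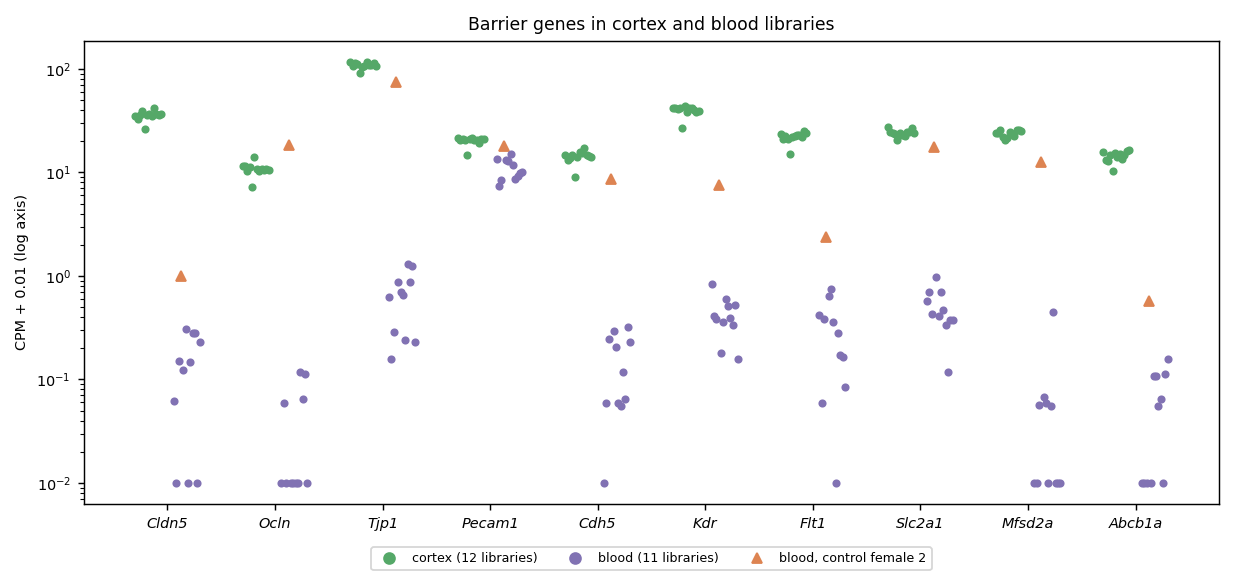
CPM plus 0.01 on a log axis for the 10 genes in 12 cortex libraries (green), 11 blood libraries (purple) and the blood library of control female 2 (orange triangle). Pecam1 is the one gene whose purple points, 7.32 to 14.96 CPM, come near cortex, and the orange triangle lies above the purple points for all 10 genes.

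Only 4 of the 10 genes had a count in each of the 11 blood libraries and could be tested for nPM in blood. With edgeR 0 of these 4 had an unadjusted p under 0.005 and 0 an adjusted p under 0.05, against 0.17% and 0.0% of 9977 genes, and 1 had an unadjusted p under 0.05, against 3.11%. That gene was Tjp1, with 3, 3, 5, 14 and 16 counts in controls and 6, 12, 13, 15, 24 and 24 counts in nPM libraries. The blood library nPM male 2 (V5), with 24 counts, also had the highest summed neuronal markers of the blood libraries, 51.1 CPM. The part of brain RNA in its Tjp1 value was not tested. The groups overlapped, and the log2 fold change of 1.06 (SE 0.390, 95% interval 0.25 to 1.88) had an edgeR adjusted p of 0.9996 and an exact permutation p of 0.169 on CPM. Pecam1, at 7.32 to 12.8 CPM in controls and 8.35 to 14.96 in nPM libraries, had a log2 fold change of 0.12 (SE 0.202). Kdr (2 to 16 counts) and Slc2a1 (2 to 17 counts) both had 0.35 with an SE of 0.397, which at these counts leaves a wide interval.

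The blood library of control female 2 held all 10 genes above every other blood library, by 1.20-fold for Pecam1 up to 169-fold for Ocln. Tjp1 had 1597 counts there, Ocln 387, Slc2a1 373 and Mfsd2a 265, whereas Cldn5 had 21 and Abcb1a 12. The order of the genes was unlike that of cortex. Per exon length Tjp1 was at 13.8 times and Ocln at 6.17 times the level of Cldn5, against 0.551 and 0.101 times in control cortex. Skin keratins Krt10, Krt5, Krt14 and Krt1 were at 541 to 3861 CPM and the summed meningeal fibroblast list at 2375 CPM, where the other blood libraries had 7.44 to 31.0. The part of skin or other tissue in these values was not tested. With this library among the controls, 8 of 10 genes had every cortex library above every blood library (48.1% of all genes), and 4 of 10 when globin and mitochondrial genes were left out (34.6%).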

How the data were processed

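The 24 libraries of neonatal cortex and blood RNA (600 ng, ribosomal RNA removed) were sequenced by the authors on a HiSeq 3000. Per the labels and methods, reads were trimmed with Trimmomatic, aligned to mm10 with HISAT2 and counted over Gencode M11 genes with featureCounts 1.5.0-p3; the deposited values are raw counts per gene. The strand setting is not given in the sources used here. Gene coordinates are those deposited, checked against the GRCm38 annotation.

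edgeR 4.0.16 (glmQLFit, glmQLFTest, two-sided, TMM) was fitted to all genes that no library of the comparison had at 0 (a minimum of 1 count), and p-values were adjusted over these genes by Benjamini-Hochberg; sex and RIN were covariates, and RIN alone within a sex. Single values were also compared by exact two-sided permutation tests of TMM-scaled CPM. The pseudocount on the log2 scale was 0.5. Alternatives were limma 3.58.1 (voom), DESeq2 1.42.0, RLE, filters of at least 1 count in any or 10 in every library, no RIN, a lane term, the mean of 5 endothelial genes as covariate, and each library left out in turn. The test script was tested on simulated data. No pair of libraries agreed within sampling noise. Intervals and limits for a count of 0 (3 counts) cover counting error only. Within a tissue, replicates are separate pups, and p-values measure the spread between these libraries. Exposure was through the dams, and the labels used here name no litters. Whether a male and a female pup of the same exposure were littermates is therefore not known. The methods give 5 breeding trios per treatment group, fewer than the pups sequenced per exposure, so some of these pups shared a trio. The tests treated the pups as independent.

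The 10 genes and the 15 gene lists (169 symbols, 1 of them not found) were chosen with earlier results of these data known. Named besides the 10 were list genes with an unadjusted p under 0.005 in a cortex comparison, in lists without one the 2 genes with the smallest p for nPM in cortex (the erythroid, platelet and skin, muscle, lung and liver lists are given as counts only), and the 10 genes most like the barrier genes, 1 of which is not reported here. Ptprb after leaving out libraries was looked at once its value was seen. Promoter sequences came from RefSeq (GRCm38.p6), where 8 of the 10 genes matched; Pecam1 and Cdh5 did not.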

Additional observations from a re-analysis of the deposited data

Results flagged for a closer look

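In a group of 6 libraries (5 for the blood controls), a value was looked at again when the gap to its nearest neighbour, divided by the whole range of the group, exceeded the 95% limit of Dixon's test, which chance does in about 1 of 20 groups. Of 40 groups of barrier gene values 10 met this, 6 of them among the cortex controls. In each of those 6 it was control male 1 at the low end, with a gap over range of 0.717 for Cldn5, 0.728 for Ocln, 0.815 for Pecam1, 0.679 for Cdh5, 0.751 for Kdr and 0.686 for Flt1. Among the nPM cortex libraries, nPM male 2 was high for Ocln (0.691, at 14.1 TMM-scaled CPM) and nPM male 3 was low for Pecam1 (0.696, at 19.4, within 2 CPM of the others).

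The replicate numbers of blood are not matched to those of cortex, so the same name does not mean the same pup. In blood, control male 1 (V22) was high for Flt1 (0.782, at 15 counts). The blood library nPM male 2 (V5) was high for Mfsd2a (0.868), with 8 counts where no other nPM library had more than 1. That nPM blood library also had the highest summed neuronal marker level of the blood libraries, 51.1 CPM. The part of brain RNA in it was not tested.

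The blood library of control female 2 (V2), left out of the main blood test, held every one of the 10 genes above the other blood libraries. Its levels were 75.4 CPM for Tjp1, 18.3 for Ocln, 17.9 for Pecam1 and 17.6 for Slc2a1, then 12.5 for Mfsd2a, 8.69 for Cdh5 and 7.60 for Kdr. Flt1 was at 2.36 CPM, Cldn5 at 0.992 and Abcb1a at 0.567.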

How the results depend on the processing

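No adjusted p under 0.05 was found for any of the 10 genes in any comparison under any alternative run; the smallest was 0.206. In cortex with both sexes 183 of 195 alternative estimates kept their sign and 12 did not, 5 of those without control male 1, and the median log2 fold change over the 10 genes ranged from −0.03 to 0.09. In males it ranged from −0.08 to 0.36 and in females from −0.01 to 0.01. With genes of at least 1 count in any library kept, 1 gene in males, Kdr, had an unadjusted p under 0.005 (edgeR adjusted p = 0.337). With that filter 418 of all 30557 genes in males had an unadjusted p under 0.005. That filter and DESeq2 also took Slc7a3 and Nrp2 in both sexes under an adjusted p of 0.05, and the filter alone took Dcn and Ttr there. Among all genes, 185 of 32461 were under it with that filter and 22 of 20857 with DESeq2. The cause was not tested. Over all genes, the count at an unadjusted p under 0.005 was 128 in cortex with both sexes and 68 to 526 under the alternatives; in females it was 873 and 422 to 1642, in males 69 and 41 to 418, and in blood 17 and 5 to 106. Without globin and mitochondrial genes in the totals the ratio of cortex over blood for Pecam1 was reversed, at 0.496, and with the blood library V2 included (chosen after seeing the data) 0.506; 4 of 10 genes then had every cortex library above blood. With all 12 blood libraries in the nPM comparison, 2 of 4 genes were higher and 2 lower, with a median of −0.09. Of the 10 genes most like the barrier genes, 6 were shared when 5 endothelial genes made the average, 2 when residuals from exposure, sex and RIN were used, and 0 without control male 1 (chosen after seeing the data). No paired analysis was possible because the labels number no replicates, and the numbers used here follow accession order and pair no samples. Depth limits the blood values, where 6 of the 10 genes had at least 1 library at 0.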
